A study of Taeniopygia guttata with 2 samples.

Results

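Joint cluster 5 is a group of medium spiny neuron nuclei from Area X of the adult zebra finch, with the working description of a minor indirect-like cluster marked by DRD2 and NPY. Its members were taken as every nucleus that the authors' clustering of both libraries together places in cluster 5 of its 23 clusters. There were 1323 such nuclei of 27245 in all, 648 of the 12956 nuclei in the library labelled shFoxP2 and 675 of the 14289 nuclei in the shScr library. These were 5.00% of the library labelled shFoxP2 (exact 95% binomial interval 4.63 to 5.39) and 4.72% of the shScr library (4.38 to 5.08).

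Area X is the basal ganglia nucleus of the song system, and single nuclei were isolated from punches of it. The library labelled shFoxP2 came from male adults that carried an adeno-associated virus with a short hairpin against FoxP2, and the shScr library from male adults that carried the same kind of virus with a scrambled hairpin. Every bird thus carried a virus of the Cre-switch design, in which a CAG promoter, active in many cell types, drives the hairpin until Cre recombinase switches it off. The labels give an age of 160 to 185 days after hatching in both groups and tissue collected before lights-on under a reversed light cycle, and each library pooled the Area X tissue of 2 birds. The paper's methods give a later age range for these birds, which overlaps that of the labels only in part. There was 1 library per condition, so birds cannot be separated, virus-free nuclei are mixed with infected ones, and no comparison between the conditions has a replicate. The clusters were built from the same counts that are compared here, so each difference between clusters is a description of them. For these reasons no test was made and no p-value is given, and intervals cover counting error only. FOXP2 RNA, the hairpin's target, was not lower under the knockdown label. In joint cluster 5 it stood at 5.56 UMIs (unique molecular identifiers, 1 for each captured RNA molecule) per 10000 UMIs of the cluster in the library labelled shFoxP2. In shScr it stood at 4.57, so the first of these is called the library labelled shFoxP2 throughout. The authors measured the knockdown as FoxP2 protein, in infected cells of Area X and in cultured cells. The counts here are exonic and intronic RNA of nuclei, so they do not measure that protein.

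Medium spiny neurons are the inhibitory projection neurons of the striatum. In mammals they are of a direct-pathway kind, which carries the dopamine receptor DRD1 and the peptide gene TAC1, and an indirect-pathway kind, which carries the dopamine receptor DRD2, the adenosine receptor ADORA2A and the peptide gene PENK. Songbird Area X holds both striatal and pallidal neurons in 1 nucleus, and FOXP2, a forkhead transcription factor tied to vocal learning, is expressed in its medium spiny neurons. Joint clusters 1 and 2 are the most numerous medium spiny groups here. Joint cluster 1 (2877 nuclei in the library labelled shFoxP2 and 3625 in shScr) carried the indirect-pathway genes, and joint cluster 2 (2737 and 3714 nuclei in the same libraries) carried EBF1, FOXP2 and ZNF521.

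The working description was checked first, and the data met it only in part. In UMIs per 10000, DRD2 in joint cluster 5 stood well above joint cluster 2 but below joint cluster 1. DRD2 stood at 2.30 UMIs per 10000 in joint cluster 5, against 4.04 in joint cluster 1 and 0.169 in joint cluster 2, in the library labelled shFoxP2. In shScr the DRD2 levels were 2.11 in joint cluster 5, 3.74 in joint cluster 1 and 0.196 in joint cluster 2. DRD2 in joint cluster 5 was therefore lower than in joint cluster 1 on the log2 scale by a ratio of -0.81 (95% interval -0.92 to -0.70) in the library labelled shFoxP2 and of -0.83 (-0.95 to -0.71) in shScr. NPY, the gene of the inhibitory peptide neuropeptide Y, followed the same order. Its levels were 3.64 in joint cluster 5, 5.89 in joint cluster 1 and 2.32 in joint cluster 2 of the library labelled shFoxP2, and 2.68, 4.38 and 1.66 in those clusters of shScr. Per 10000 UMIs, neither DRD2 nor NPY set joint cluster 5 apart from joint cluster 1 by being higher. Per nucleus both were slightly higher there, as given below for DRD2. NPY had 2.11 UMIs per nucleus in joint cluster 5 against 1.73 in joint cluster 1 of the library labelled shFoxP2, and 1.30 against 1.05 in shScr. Joint cluster 5 also held RNA of the genes that define joint cluster 2, so it is called by its number below and is given no cell type name.

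**Figure D1:**
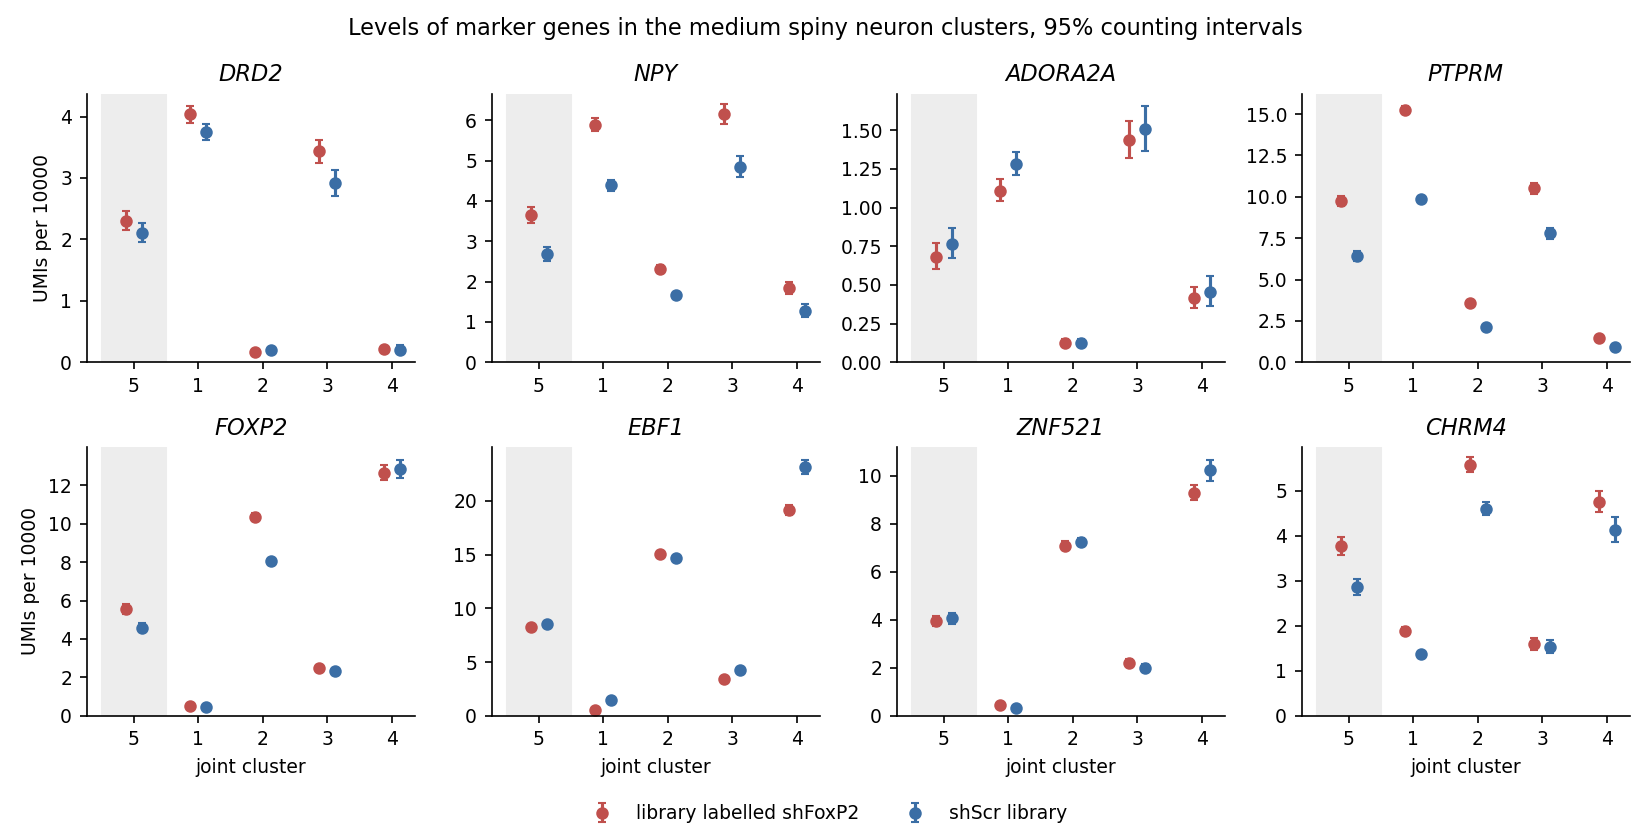
Levels of 8 genes in UMIs per 10000 UMIs (vertical axes) in joint clusters 5, 1, 2, 3 and 4 (horizontal axes, joint cluster 5 on the grey band), in the library labelled shFoxP2 and in shScr. Points are sums over a cluster and bars are exact 95% Poisson intervals; in joint cluster 5 DRD2 stands at 2.30 and 2.11, between joint cluster 1 (4.04 and 3.74) and joint cluster 2 (0.169 and 0.196), and FOXP2 at 5.56 and 4.57, between the same clusters from the other side.

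The nuclei of joint cluster 5 were deeper than those of the other medium spiny clusters, which touches every result that follows. The median nucleus of joint cluster 5 held 5343.5 UMIs in the library labelled shFoxP2, against 2766 in joint cluster 1 and 2750 in joint cluster 2. In shScr it held 4278 UMIs, against 2219 in joint cluster 1 and 2137.5 in joint cluster 2. Joint cluster 5 was thus 1.93 times as deep as joint cluster 1 in either library, and its median was 96.9% of the sum of the medians of joint clusters 1 and 2 in the library labelled shFoxP2 and 98.2% of that sum in shScr. By median depth it ranked 3rd of the 23 clusters in the library labelled shFoxP2 and 4th in shScr. Joint clusters 21 (5798 and 4981.5 UMIs) and 23 (6407 and 6169.5 UMIs) were deeper in both libraries, and joint cluster 13 (4788 UMIs) in shScr. Nearly every member shared this depth: 99.2% of the members in the library labelled shFoxP2 and 98.1% in shScr were deeper than the median nucleus of joint cluster 1. Thinned to 1000 UMIs each, the median nucleus of joint cluster 5 had 645 genes in either library, against 656 in joint cluster 1 of the library labelled shFoxP2 and 658 in joint cluster 1 of shScr. The mitochondrial share of UMIs had a median of 0.491% in joint cluster 5 against 0.789% in joint cluster 1 in the library labelled shFoxP2, and of 0.547% against 0.889% in shScr.

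Doublet scores moved with the cluster as well. Scrublet, which scores each nucleus by its likeness to simulated pairs of nuclei, called 0 nuclei by its own threshold, which means that it did not work as a caller here, so the nuclei with the highest 8% of scores in each library were taken as possible doublets. These were 21.5% of joint cluster 5 (139 nuclei) and 4.10% of joint cluster 1 in the library labelled shFoxP2, and 25.9% of joint cluster 5 (175 nuclei) and 4.83% of joint cluster 1 in shScr. Joint cluster 3, the third medium spiny cluster, had 8.96% and 10.8% in the same libraries. Outside the medium spiny clusters, joint cluster 21 had 55.8% and 50%, and joint cluster 7 28.3% and 21.8%. No separate measure of nuclei per droplet was analysed here, so a nucleus that holds RNA of more than 1 kind of neuron and a barcode that holds more than 1 nucleus cannot be told apart. With possible doublets left out of every cluster, the log2 ratio of joint cluster 5 over joint cluster 1 was 3.53 for FOXP2 and -0.79 for DRD2 in the library labelled shFoxP2 and 3.48 and -0.82 in shScr, close to the ratios over all nuclei given below. The ratios of DSCAM (3.07 in the library labelled shFoxP2 and 2.81 in shScr) and of EBF1 in shScr (2.74) became larger, and the numbers of genes at least 2-fold lower became 44 and 63. Since the cut takes a fixed share of nuclei, these values cannot show whether the members that remain are single nuclei.

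**Figure D2:**
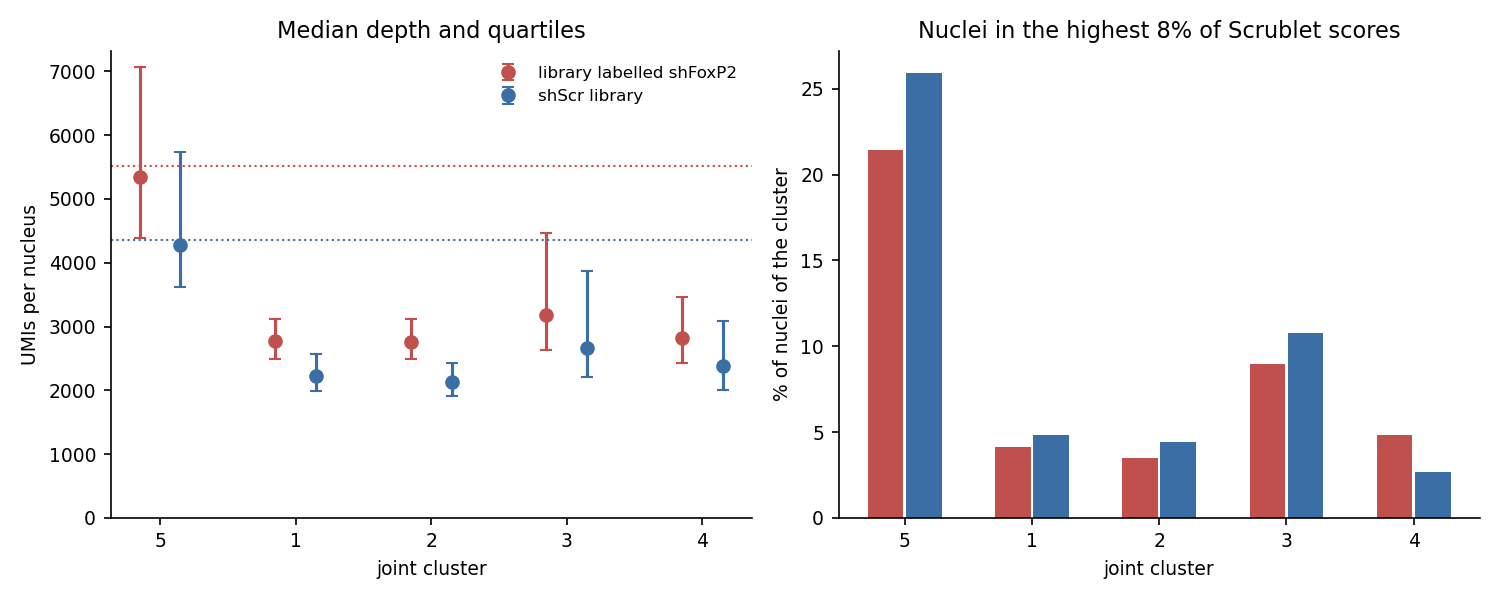
Median UMIs per nucleus with quartiles (first panel) and the percent of nuclei among the highest 8% of Scrublet scores (second panel) for joint clusters 5, 1, 2, 3 and 4, in the library labelled shFoxP2 and in shScr. Dotted lines mark the sum of the medians of joint clusters 1 and 2, 5516 UMIs in the library labelled shFoxP2 and 4356.5 in shScr, beside joint cluster 5 at 5343.5 and 4278.

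Genes were then compared between joint cluster 5 and joint cluster 1 in each library separately, from UMIs summed over a cluster. In the library labelled shFoxP2, 6348 genes had at least 200 UMIs over both sums, of which 29 (0.457%) were at least 2-fold higher and 26 (0.41%) at least 2-fold lower in joint cluster 5 than in joint cluster 1. In shScr, 24 (0.38%) were at least 2-fold higher and 32 (0.507%) at least 2-fold lower, of 6317 genes. Few genes thus set the clusters apart, and the higher ones were shared more often than the lower ones. Of the 5978 genes measured in both libraries, 18 were higher in both, which is 62.1% of the list from the library labelled shFoxP2 and 75% of the list from shScr. For the lower genes the overlap was 4, or 15.4% of the list from the library labelled shFoxP2 and 12.5% of the list from shScr. The genes named below were chosen by the size of their ratio, so the ratios describe them and support nothing further.

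Several of the named higher genes encode transcription factors or proteins that bind them, and FOXP2 and ZNF521 were among the 3 largest ratios of the named genes in each library. FOXP2 stood at 5.56 UMIs per 10000 in joint cluster 5 against 0.508 in joint cluster 1 in the library labelled shFoxP2, a log2 ratio of 3.45 (95% interval 3.30 to 3.60). In shScr it stood at 4.57 in joint cluster 5 against 0.441 in joint cluster 1, a log2 ratio of 3.37 (3.21 to 3.54). EBF1, an early B cell factor that direct-pathway neurons need to differentiate in the mouse, was at 8.25 in joint cluster 5 against 0.553 in joint cluster 1 in the library labelled shFoxP2, a log2 ratio of 3.90 (3.76 to 4.04). Its ratio was smaller in shScr, 2.57 (2.48 to 2.67), with 8.54 in joint cluster 5 against 1.44 in joint cluster 1, so the levels in joint cluster 5 were close between libraries and those in joint cluster 1 were not. ZNF521, a zinc finger protein that binds EBF factors, had log2 ratios of 3.11 (2.95 to 3.28) in the library labelled shFoxP2 and 3.57 (3.39 to 3.76) in shScr. TRPS1, a zinc finger repressor of the GATA family, had 1.43 and 1.32 in the same libraries, and LDB2, which binds LIM domain factors, had 2.35 and 1.12. For LDB2 both clusters differed between libraries: it was at 1.08 in joint cluster 5 and 0.213 in joint cluster 1 of the library labelled shFoxP2, and at 3.65 and 1.68 in those clusters of shScr.

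Other named genes encode surface proteins, a scaffold and an enzyme. DSCAM, a cell adhesion molecule of the immunoglobulin family, stood at 15.6 UMIs per 10000 in joint cluster 5 in both libraries, against 2.01 in joint cluster 1 of the library labelled shFoxP2 and 2.44 in joint cluster 1 of shScr. PCDH17, a protocadherin, had log2 ratios of 1.65 in the library labelled shFoxP2 and 1.68 in shScr, and EPHA5, an ephrin receptor, had 0.93 and 0.94, under the 2-fold limit in each. PATJ, a scaffold of the Crumbs polarity complex, had 2.36 and 2.12 in the same libraries. XYLT1, the enzyme that starts sugar chains on proteoglycans, had 3.07 in the library labelled shFoxP2 and 1.76 in shScr. LRP1B, a large receptor of the LDL receptor family, was at 0.941 in joint cluster 5 against 0.326 in joint cluster 1 in the library labelled shFoxP2, and at 0.660 against 0.252 in shScr.

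Receptors and a peptide were also higher in joint cluster 5 than in joint cluster 1. NTSR1, a neurotensin receptor, had a log2 ratio of 1.5 in each library (intervals 1.13 to 1.86 in the library labelled shFoxP2 and 1.15 to 1.85 in shScr). ADRA2C, an inhibitory adrenergic receptor, had 1.51 in the library labelled shFoxP2 and 1.28 in shScr. CHRM4, the inhibitory muscarinic receptor that mammalian direct-pathway neurons carry, had 1.00 (0.90 to 1.11) and 1.07 (0.94 to 1.19), with 3.77 UMIs per 10000 in joint cluster 5 against 1.88 in joint cluster 1 in the library labelled shFoxP2. IAPP, the gene of the peptide amylin, had log2 ratios of 1.28 and 1.60 in the same libraries. The remaining named genes were TUB (1.64 and 1.41), KIAA1217 (1.73 and 1.57), the class III myosin MYO3B (1.46 and 1.49), OTOG (1.21 and 0.99) and the receptor kinase GRK3 (1.11 and 0.97), each with the library labelled shFoxP2 given before shScr.

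**Figure D3:**
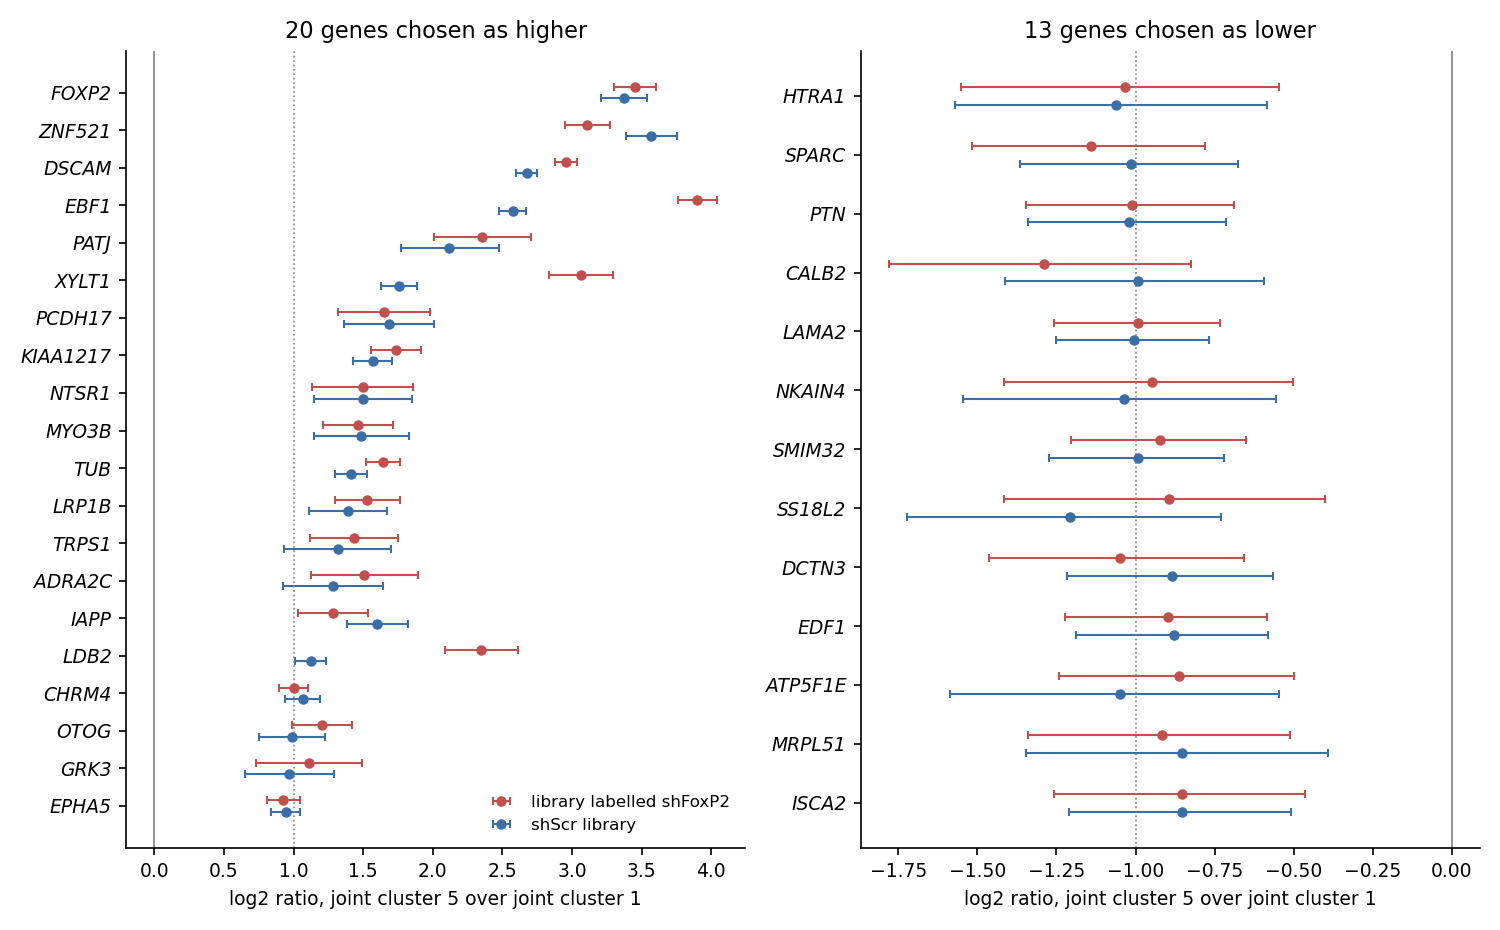
Log2 ratio of joint cluster 5 over joint cluster 1 (horizontal axes) with 95% binomial intervals for the 20 named higher genes (left) and 13 of the 15 lower genes (right), in the library labelled shFoxP2 and in shScr; dotted lines mark 2-fold. FOXP2 reaches 3.45 and 3.37, while the lower genes lie near -1, from -1.29 (CALB2, library labelled shFoxP2) to -0.85 (ISCA2, both libraries).

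Every gene of this group was also higher in joint cluster 2 than in joint cluster 1. All 29 genes at least 2-fold higher in the library labelled shFoxP2 and all 24 in shScr had a higher level in joint cluster 2 than in joint cluster 1, and the 18 shared ones were at least 2-fold higher there, where 0.947% of genes were so in the library labelled shFoxP2 and 0.948% in shScr. FOXP2 was at 5.56 UMIs per 10000 in joint cluster 5, 0.508 in joint cluster 1 and 10.3 in joint cluster 2 of the library labelled shFoxP2, and at 4.57, 0.441 and 8.04 in those clusters of shScr. EBF1 in joint cluster 2 was at 15.05 in the library labelled shFoxP2 and 14.7 in shScr, DSCAM at 28.5 and 26.3, and ZNF521 at 7.08 and 7.24. Each of these levels in joint cluster 5 thus lay between those of the other clusters. No gene was at least 2-fold above both joint cluster 1 and joint cluster 2 in either library. At 1.5-fold there was 1 such gene in each library, and 0 in both. Below both clusters by at least 2-fold stood 8 genes in the library labelled shFoxP2 and 20 in shScr, of which 1 was shared. At 1.5-fold the genes below both numbered 217 in the library labelled shFoxP2 and 255 in shScr, of which 105 were shared.

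To place joint cluster 5 between the others, 38 genes at least 4-fold apart between joint clusters 1 and 2 in both libraries were used, 18 higher in joint cluster 2 and 20 higher in joint cluster 1. In the library labelled shFoxP2, 0.338% of genes were at least 4-fold higher and 0.365% at least 4-fold lower in joint cluster 2 than in joint cluster 1, and in shScr 0.267% and 0.401%. On a scale where 0 is the level of joint cluster 1 and 1 that of joint cluster 2, joint cluster 5 had a median position of 0.506 in the library labelled shFoxP2 and 0.494 in shScr. All 38 genes lay between 0 and 1 in both libraries, with a range of 0.384 to 0.794 in the library labelled shFoxP2 and of 0.371 to 0.609 in shScr. The genes of both directions shared this place. In the library labelled shFoxP2 the 18 genes higher in joint cluster 2 had a median of 0.524 and the 20 genes higher in joint cluster 1 of 0.486, and in shScr these were 0.534 and 0.483.

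Per nucleus, rather than per 10000 UMIs, the RNA of both sets was near its full amount. DRD2 had 1.33 UMIs per nucleus in joint cluster 5, 1.19 in joint cluster 1 and 0.0504 in joint cluster 2 of the library labelled shFoxP2. In shScr these were 1.02 in joint cluster 5, 0.898 in joint cluster 1 and 0.0450 in joint cluster 2. FOXP2 had 3.22 UMIs per nucleus in joint cluster 5, 0.149 in joint cluster 1 and 3.08 in joint cluster 2 of the library labelled shFoxP2, and 2.21, 0.106 and 1.85 in those clusters of shScr. A nucleus of joint cluster 5 thus held about as much DRD2 RNA as one of joint cluster 1 and about as much FOXP2 RNA as one of joint cluster 2. Over the 20 genes higher in joint cluster 1, the level per nucleus in joint cluster 5 divided by that in joint cluster 1 had a median of 1.14 (range 0.953 to 1.30) in the library labelled shFoxP2 and 1.15 (0.939 to 1.36) in shScr. Over the 18 genes higher in joint cluster 2, the level in joint cluster 5 divided by that in joint cluster 2 had a median of 1.15 (0.955 to 1.64) in the library labelled shFoxP2 and 1.24 (1.14 to 1.40) in shScr.

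Over all genes measured, the level per nucleus in joint cluster 5, set against the sum of joint clusters 1 and 2 per nucleus, had a median log2 ratio of -0.08 (5th to 95th percentile -0.60 to 0.16) in the library labelled shFoxP2 and of 0.00 (-0.55 to 0.25) in shScr. These medians follow from the depth of the nuclei, since the mean UMIs of joint cluster 5 were 97.8% of that sum in the library labelled shFoxP2 and 102.8% in shScr. With the weights left free, the profile of joint cluster 5 was best given as a sum with 50.4% of joint cluster 2 in the library labelled shFoxP2 and 49.1% in shScr, the remainder being joint cluster 1.

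**Figure D4:**
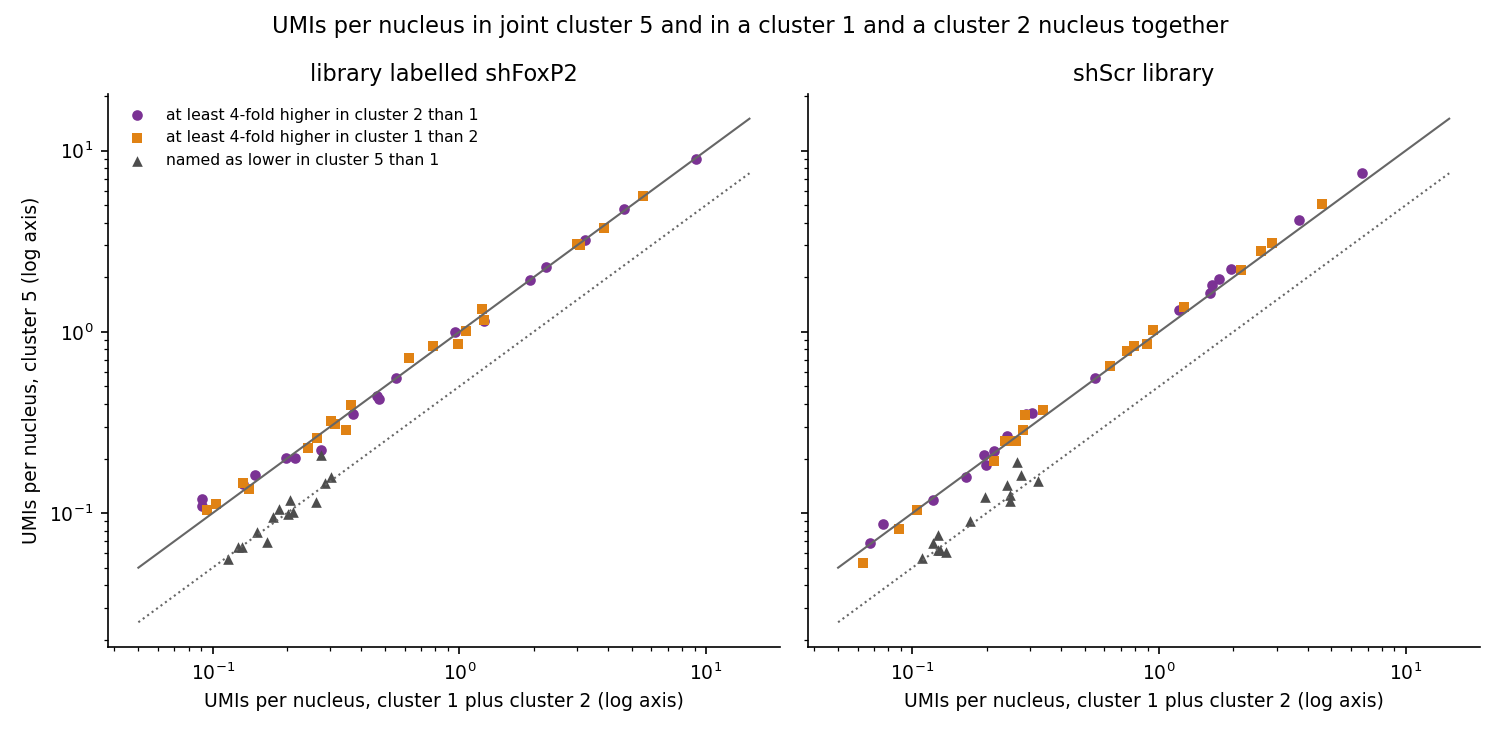
UMIs per nucleus in joint cluster 5 (vertical axis) against the sum of UMIs per nucleus in joint clusters 1 and 2 (horizontal axis), both axes logarithmic, with 1 panel per library; circles are the 18 genes higher in joint cluster 2, squares the 20 genes higher in joint cluster 1 and triangles the other named lower genes. The solid line is equality and the dotted line the mean of joint clusters 1 and 2; circles and squares lie near the solid line (median quotients 1.01 and 1.01 in the library labelled shFoxP2, 1.09 and 1.04 in shScr) and triangles near the dotted one.

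Departures from this sum were few in one direction and more frequent in the other. At least 2-fold above it stood 1 gene (0.0158%) in the library labelled shFoxP2, TRPM3, a cation channel gene named after its value was seen, and 0 in shScr. At least 2-fold below it stood 11 genes (0.173%) in the library labelled shFoxP2 and 28 (0.443%) in shScr. At 1.5-fold, 6 genes (0.0945%) were above and 289 (4.55%) below the sum in the library labelled shFoxP2, and 4 (0.0633%) above and 339 (5.37%) below in shScr. For comparison, joint cluster 3 had 135 genes (2.09%) at least 2-fold above its best sum of joint clusters 1 and 2 in the library labelled shFoxP2 and 146 (2.33%) in shScr, and joint cluster 4 had 190 (2.97%) and 193 (3.17%). The genes that stood farthest above the sum in both libraries were LRP1B (log2 ratio 0.82 in the library labelled shFoxP2 and 0.49 in shScr), PCDH17 (0.60 and 0.38), SEMA6D, a semaphorin (0.69 and 0.39), ERBB4, the neuregulin receptor (0.46 and 0.53), SHISA9 (0.54 and 0.49) and RALYL (0.54 and 0.38). Each of these was higher in joint clusters 3 and 4 than in joint cluster 5, with LRP1B at 2.27 UMIs per 10000 in joint cluster 3 and 8.01 in joint cluster 4 of the library labelled shFoxP2. The ratio of LRP1B over joint cluster 1 depended on depth: among nuclei with 3000 to 6000 UMIs it was 0.82 in the library labelled shFoxP2 and 0.16 in shScr, against 1.53 and 1.39 over all depths.

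The separating genes were then read in single nuclei. For each nucleus with at least 10 UMIs on the 38 separating genes, the share of those UMIs that fell on the 18 genes of joint cluster 2 was taken as its balance. The median balance of joint cluster 5 was 0.514 in the library labelled shFoxP2 and 0.519 in shScr, with the middle 80% of nuclei from 0.333 to 0.703 and from 0.347 to 0.696 in those libraries. A balance of 0.25 to 0.75 was found in 91.0% of joint cluster 5 in the library labelled shFoxP2, against 4.26% of joint cluster 1, 3.82% of joint cluster 2 and 36.0% of joint cluster 3. In shScr it was found in 95.1% of joint cluster 5, 8.96% of joint cluster 1, 8.98% of joint cluster 2 and 41.3% of joint cluster 3. Most members thus held UMIs of both gene sets within 1 barcode.

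Depth was then made equal. With every nucleus thinned to 1000 UMIs, 77.8% of joint cluster 5 (exact 95% interval 74.4 to 80.9) had at least 2 UMIs on each gene set in the library labelled shFoxP2, against 15.02% of joint cluster 1 and 18.7% of joint cluster 2. In shScr this was 82.5% of joint cluster 5 (79.4 to 85.3), 23.3% of joint cluster 1 and 28.2% of joint cluster 2. Joint cluster 3 stood between, with 37.6% in the library labelled shFoxP2 and 41.3% in shScr. The shallower members of joint cluster 5 were at least as balanced as the deeper ones. A balance of 0.25 to 0.75 was found in 99.4% of the members shallower than the cluster's median and 82.7% of the deeper ones in the library labelled shFoxP2, and in 97.9% of the shallower and 92.3% of the deeper ones in shScr.

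**Figure D5:**
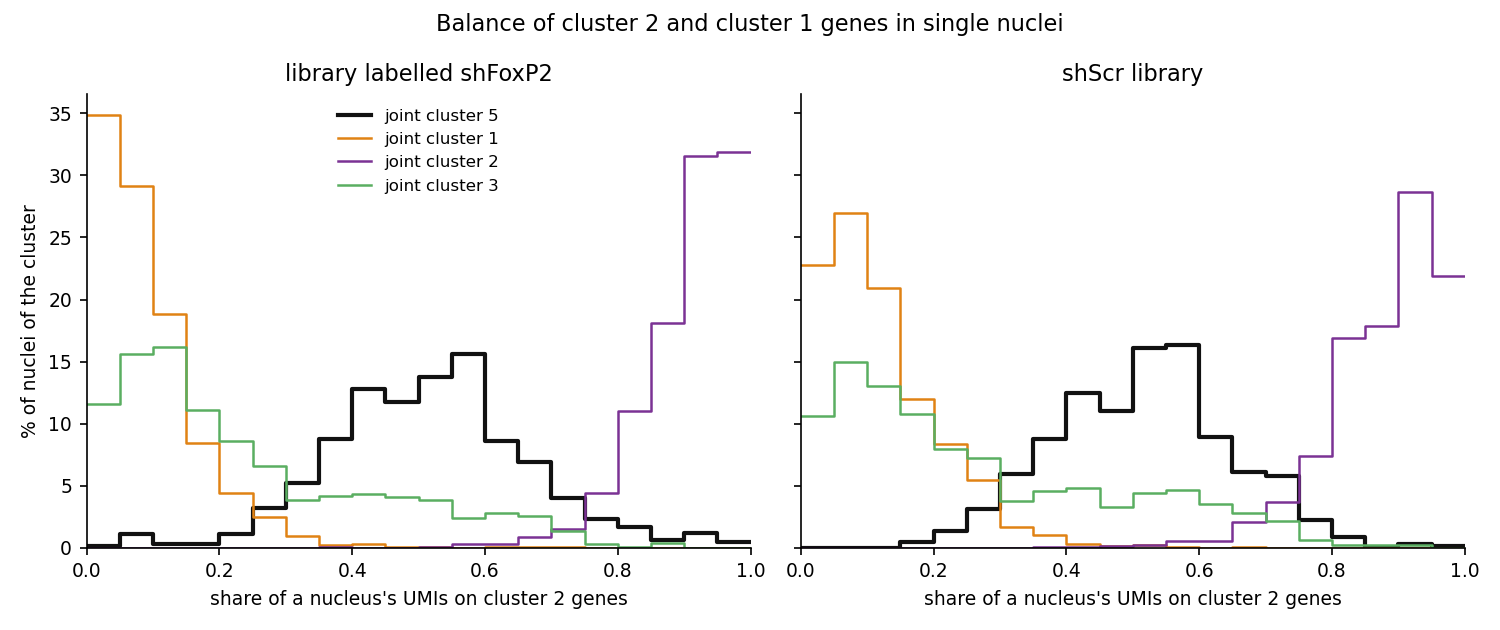
Distribution of the balance, the share of a nucleus's UMIs on the 38 separating genes that fall on the 18 genes of joint cluster 2 (horizontal axis), as percent of nuclei (vertical axis), for joint clusters 5, 1, 2 and 3, with 1 panel per library. Joint cluster 5 peaks near its median of 0.514 in the library labelled shFoxP2 and 0.519 in shScr, between joint clusters 1 and 2.

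Shares of nuclei with a UMI for the marker genes depend on this depth. DRD2 was detected in 67.1% of joint cluster 5 and 66.3% of joint cluster 1 in the library labelled shFoxP2, and in 57.2% and 55.3% in shScr. Thinned to 1000 UMIs, it was detected in 20.8% of joint cluster 5 (17.8 to 24.2) and 31.8% of joint cluster 1 in the library labelled shFoxP2, and in 18.8% (15.9 to 22.0) and 31.3% in shScr. Shares in groups that should lack DRD2 give the background: after the same thinning, joint cluster 2 had 1.72% and 2.10%, and joint cluster 6, which carried astrocyte markers and had a median depth of 1703 UMIs in the library labelled shFoxP2 and 1550 in shScr, had 2.41% and 2.36%. The small joint cluster 22, with microglial markers, had 30.6% (11 of 36 nuclei) in the library labelled shFoxP2 and 15.3% (11 of 72) in shScr. Thinning left out its nuclei under 1000 UMIs, 29 of 65 in the library labelled shFoxP2 and 112 of 184 in shScr. Against that cluster the DRD2 share of joint cluster 5 is not above background in the library labelled shFoxP2. The share of joint cluster 1 there, 31.8%, is hardly above it either, so joint cluster 22 does not serve to tell DRD2 from background. After thinning, NPY was detected in 30.6% of joint cluster 5, 42.9% of joint cluster 1, 19.4% of joint cluster 2 and 26.8% of joint cluster 6 in the library labelled shFoxP2. In shScr these shares were 23.0%, 34.7%, 15.4% and 17.9%. Joint cluster 5 thus stood above joint clusters 2 and 6 for NPY, by a smaller margin than for DRD2. Nuclei of joint cluster 6 were shallower before thinning than those of joint cluster 5. Per nucleus without thinning, NPY had 2.11 UMIs in joint cluster 5 against 0.689 in joint cluster 2 of the library labelled shFoxP2. In shScr these were 1.30 and 0.380.

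After thinning, detection of DRD2 and EBF1 in 1 nucleus was more frequent in joint cluster 5 than in joint cluster 1 or 2. Before thinning, where depth was unequal, they were detected together in 62.8% of joint cluster 5 against 8.20% of joint cluster 1 in the library labelled shFoxP2, and in 53.9% against 13.0% in shScr. Thinned to 1000 UMIs, they were detected together in 10.7% of joint cluster 5, 1.91% of joint cluster 1 and 1.5% of joint cluster 2 in the library labelled shFoxP2, and in 10.2%, 3.35% and 1.51% of those clusters in shScr. DRD2 and FOXP2 were detected together in 7.25% of joint cluster 5 and 1.39% of joint cluster 1 after thinning in the library labelled shFoxP2, and in 5.93% and 1.02% in shScr.

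The genes that were lower in joint cluster 5 are described here as 2 kinds. Listed markers of the indirect pathway formed the first, and none of them reached 2-fold. Some other genes that were lower in joint cluster 2 than in joint cluster 1 did, such as UNC5D (-1.05) in the library labelled shFoxP2. Of the genes at least 2-fold lower, 4 of 26 in that library and 3 of 32 in shScr were also at least 2-fold lower in joint cluster 2 than in joint cluster 1. Of the 9 listed indirect-pathway markers, 6 passed the minimum in the library labelled shFoxP2 and 7 in shScr. At most 0.507% of all genes were at least 2-fold apart in either direction, and 0 of these markers were in either library. All that passed had log2 ratios below 0, with medians of -0.67 in the library labelled shFoxP2 and -0.74 in shScr beside medians of -0.06 over all genes in each library. ADORA2A stood at 0.683 UMIs per 10000 in joint cluster 5 against 1.11 in joint cluster 1 in the library labelled shFoxP2 and at 0.767 against 1.28 in shScr. PTPRM, a receptor phosphatase with a role in cell adhesion, stood at 9.76 against 15.2 and at 6.42 against 9.86 in the same libraries and cluster order. PENK had log2 ratios of -0.56 in the library labelled shFoxP2 and -0.66 in shScr. The 9 listed markers summed to 15.7 UMIs per 10000 in joint cluster 5, 25.1 in joint cluster 1 and 5.49 in joint cluster 2 of the library labelled shFoxP2, and to 12.6, 19.9 and 4.66 in those clusters of shScr. Receptor genes outside that list stood likewise, with CRHR2, a receptor for corticotropin-releasing peptides, at log2 ratios of -0.70 and -0.86 in the same libraries and HTR7, a serotonin receptor, at -0.85 and -0.81.

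The second kind was near or past 2-fold lower and held no member of either pathway list. SPARC, a secreted matrix glycoprotein gene, had 0.200 UMIs per 10000 in joint cluster 5 against 0.441 in joint cluster 1 in the library labelled shFoxP2 (log2 ratio -1.14, 95% interval -1.52 to -0.78) and 0.261 against 0.526 in shScr (-1.01, -1.36 to -0.68). HTRA1, a secreted protease gene, had log2 ratios of -1.03 in the library labelled shFoxP2 and -1.06 in shScr, and PTN, the gene of the growth factor pleiotrophin, had -1.01 and -1.02. Also in this group were CALB2, the calretinin gene of many interneurons (-1.29 and -0.99), the dynactin subunit gene DCTN3 (-1.05 and -0.88), the mitochondrial genes ATP5F1E (-0.86 and -1.05), MRPL51 (-0.92 and -0.85) and ISCA2 (-0.85 and -0.85), and NKAIN4, SS18L2 and EDF1, whose ratios ran from -1.21 to -0.88. LAMA2, a laminin chain gene (-0.99 and -1.01), and SMIM32 (-0.92 and -0.99) differed from these in being lower in joint cluster 2 as well, with LAMA2 at 0.0356 and SMIM32 at 0.247 in joint cluster 2 of the library labelled shFoxP2.

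Counted per nucleus, most of these genes were close between the clusters. SPARC had 0.116 UMIs per nucleus in joint cluster 5, 0.13 in joint cluster 1 and 0.134 in joint cluster 2 of the library labelled shFoxP2, and 0.126, 0.126 and 0.122 in those clusters of shScr. Over the 15 lower genes chosen by the rule, the level per nucleus in joint cluster 5 divided by that in joint cluster 1 had a median of 0.989 (0.806 to 1.09) in the library labelled shFoxP2 and 1.00 (0.870 to 1.11) in shScr. Divided by the sum of joint clusters 1 and 2 per nucleus, they had a median of 0.515 in the library labelled shFoxP2 and 0.526 in shScr, where the separating genes were near 1. The range was 0.418 to 0.946 in the library labelled shFoxP2 and 0.445 to 0.955 in shScr. LAMA2 and SMIM32 stood apart from the rest. In the library labelled shFoxP2, LAMA2 had 0.230 UMIs per nucleus in joint cluster 5, 0.233 in joint cluster 1 and 0.0106 in joint cluster 2. SMIM32 had 0.208, 0.201 and 0.0734 in those clusters. Nuclei with 3000 to 6000 UMIs were then taken alone, which left 905 nuclei of joint cluster 1 in the library labelled shFoxP2 and 396 in shScr. Joint cluster 5 was still deeper, with medians of 4671 against 3348 UMIs in the library labelled shFoxP2 and 4002 against 3700.5 in shScr. Among these nuclei the lower genes moved closer to joint cluster 1. Their median log2 ratio was -0.69 in the library labelled shFoxP2 and -0.56 in shScr, against -0.99 and -1.01 over all depths. The 20 higher genes had a median of 1.56 in the library labelled shFoxP2 and 1.33 in shScr, against 1.59 and 1.49 over all depths. LRP1B, MYO3B (0.88), LDB2 (0.91) and NTSR1 (0.99) then fell under 2-fold in shScr. LRP1B (0.82) did so in the library labelled shFoxP2 as well. The counts then were 15 higher and 3 lower genes in the library labelled shFoxP2, and 13 higher and 1 lower in shScr, of 3526 and 2529 genes with enough UMIs.

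Per 10000 UMIs, markers of other cell types were low in joint cluster 5 and most of their lists summed to less than in joint cluster 1. Per nucleus, which was deeper in joint cluster 5, these lists summed to more there, except the microglial one in the library labelled shFoxP2. Astrocyte markers had 1.41 UMIs per nucleus against 1.16 in that library and 1.33 against 0.929 in shScr. Interneuron markers had 2.69 against 2.26 and 2.15 against 1.77. The 6 astrocyte markers summed to 2.44 UMIs per 10000 in joint cluster 5 against 3.93 in joint cluster 1 in the library labelled shFoxP2, and to 2.75 against 3.87 in shScr, with GFAP at 0 in joint cluster 5 of both. The 3 oligodendrocyte markers in the table summed to 4.43 against 4.66 and to 4.16 against 4.54 in the same order. The 3 microglial markers were all at 0 in joint cluster 5 of the library labelled shFoxP2 and summed to 0.0184 in shScr, against 0.00591 and 0.0126 in joint cluster 1. The precursor markers summed to 0.125 in joint cluster 5 against 0.0992 in joint cluster 1 in the library labelled shFoxP2, and to 0.193 against 0.279 in shScr. The 11 interneuron markers summed to 4.65 against 7.68 in the library labelled shFoxP2 and to 4.46 against 7.39 in shScr, with TH at 0 in joint cluster 5 of both. NPY made up most of these sums, with 3.64 against 5.89 and 2.68 against 4.38, so they largely repeat the NPY result. PVALB and CALB2 were at least 2-fold lower in the library labelled shFoxP2, of 5 over the minimum, and 0 of 6 were in shScr. Over all genes 0.41% and 0.507% were so in those libraries. The endothelial markers summed to 0.459 against 0.514 and to 0.525 against 0.486 in the same order. Of the 4 shared medium spiny markers, PPP1R1B, a regulator of protein phosphatase in dopamine signalling, was lower in joint cluster 5 than in joint cluster 1 by a log2 ratio of -0.21 (-0.34 to -0.08) in the library labelled shFoxP2 and -0.33 (-0.47 to -0.19) in shScr. MEIS2, a homeodomain factor, was higher by 0.23 (0.20 to 0.26) and 0.14 (0.10 to 0.17), and GAD2 and FOXP1 had intervals that held 0 in both libraries.

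Of the 10 listed direct-pathway markers, 7 passed the minimum in each library. Of these, 3 were at least 2-fold higher in joint cluster 5 than in joint cluster 1 in both libraries, namely FOXP2, EBF1 and CHRM4. Over all genes 0.457% were so in the library labelled shFoxP2 and 0.38% in shScr. The 10 summed to 30.6 UMIs per 10000 in joint cluster 5, 16.8 in joint cluster 1 and 48.4 in joint cluster 2 of the library labelled shFoxP2, and to 39.9, 25.6 and 58.5 in those clusters of shScr. TAC1, the peptide gene of the direct pathway, was at 7.84 in joint cluster 5, 6.58 in joint cluster 1 and 13.6 in joint cluster 2 of the library labelled shFoxP2, and at 18.8, 16.0 and 26.6 in those clusters of shScr. Its log2 ratio over joint cluster 1 was 0.25 (0.19 to 0.32) in the library labelled shFoxP2 and 0.23 (0.19 to 0.27) in shScr, so it did not approach 2-fold. The other 3 that passed had ratios below 0. RELN, the gene of the secreted protein reelin, had -0.77 in the library labelled shFoxP2 and -0.48 in shScr. Though listed for the direct pathway, RELN was lower in joint cluster 2 than in joint cluster 1. It was at 3.00 in joint cluster 5, 5.10 in joint cluster 1 and 1.16 in joint cluster 2 of the library labelled shFoxP2. In shScr these were 2.16, 3.02 and 0.921. The dopamine receptor genes DRD1 and DRD5 had -0.10 (-0.29 to 0.09) and -0.18 in the library labelled shFoxP2, and -0.25 and -0.25 in shScr. Both differed little between joint clusters 1 and 2. DRD1 was at 0.912 in joint cluster 1 and 1.14 in joint cluster 2 of the library labelled shFoxP2, and at 1.45 and 1.52 in shScr. DRD5 was at 1.18 and 1.21 in the library labelled shFoxP2, and at 1.76 and 1.64 in shScr, in the same cluster order.

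Most signalling and channel lists had 0 or 1 gene past 2-fold in a library. The striatal transcription factors had 3, and the acetylcholine to cannabinoid receptors had 2. These 2 lists stood above the shares of all genes, through genes already named above. Of all genes, 0.457% were at least 2-fold higher and 0.41% at least 2-fold lower in the library labelled shFoxP2. In shScr these shares were 0.38% and 0.507%. A count of 0 or 1 was not taken to set a list apart, as no set test was made. Of the dopamine to cAMP signalling list, 20 genes passed the minimum in each library and 0 reached 2-fold in either direction. The list's median log2 ratios were 0.02 in the library labelled shFoxP2 and 0.03 in shScr. PDE10A, the phosphodiesterase of medium spiny neurons, had 0.13 and 0.15. Among the striatal transcription factors, 3 of 27 in the library labelled shFoxP2 and 3 of 28 in shScr were at least 2-fold higher, and these were FOXP2, EBF1 and ZNF521. Potassium channel genes at least 2-fold higher numbered 0 of 32 and 1 of 35 (KCNK5), and sodium, calcium and HCN channel genes 0 of 20 and 1 of 20 (CACNA1G, a low-voltage calcium channel, at 0.66 and 1.08). Glutamate receptor genes reached 2-fold in 0 of 19 and 0 of 20 cases and GABA receptor genes in 0 of 11 in each library. Of the acetylcholine, serotonin, adenosine, adrenergic and cannabinoid receptors, ADRA2C and CHRM4 were at least 2-fold higher, of 10 measured in the library labelled shFoxP2 and 11 in shScr. The list's medians were -0.27 and -0.16, below the -0.06 of all genes in each library.

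Peptides, adhesion and guidance genes gave the remaining members. Over all genes the shares were 0.457% higher and 0.41% lower in the library labelled shFoxP2, and 0.38% and 0.507% in shScr. No set test was made, so a count of 0 or 1 in a direction was not taken to set a list apart. In a list with few measured genes, 1 gene is a large part. Of the listed neuropeptide genes, which do not include IAPP, 0 reached 2-fold, of 14 in the library labelled shFoxP2 and 16 in shScr, and their medians were -0.42 and -0.38, below those of all genes. Of the neuropeptide receptors, NTSR1 was past 2-fold, of 5 in the library labelled shFoxP2 and 6 in shScr. Of the cadherins and protocadherins, PCDH17 was, of 20 and 19 in the same libraries. Among axon guidance genes SEMA6D was at least 2-fold higher and UNC5D, a netrin receptor, at least 2-fold lower (-1.05) in the library labelled shFoxP2, of 36, and 0 of 36 passed in shScr, where UNC5D had -0.71. Among synaptic adhesion genes LRFN2 was the 1 past 2-fold, of 31 in the library labelled shFoxP2, and 0 of 29 passed in shScr. Genes of striosome, matrix and eccentric spiny neurons of mammals, activity genes, and retinoic acid and steroid genes added no further gene past 2-fold except CHRM4, which the striosome list also holds.

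The libraries were also compared within joint cluster 5, from 1 library each, so that hairpin, birds and library cannot be told apart. Of 4326 genes, 56 (1.29%) were at least 2-fold higher and 58 (1.34%) at least 2-fold lower in the library labelled shFoxP2 than in shScr, and in joint cluster 1 the same counts were 113 (1.5%) and 119 (1.58%) of 7545 genes. FOXP2 had a log2 ratio of 0.28 (0.18 to 0.38) between the libraries in joint cluster 5, 0.20 in joint cluster 1 and 0.36 in joint cluster 2. The gene with the largest ratio in each direction was also apart in joint clusters 1 and 2. LRMP, the largest of the higher ones, had 3.18 in joint cluster 5, 3.37 in joint cluster 1 and 2.89 in joint cluster 2, and ALK, a receptor tyrosine kinase and the largest of the lower ones, had -3.07, -2.23 and -3.39 in those clusters. The next were KCTD16, a subunit of GABA-B receptors (3.07), GAS2 (2.74), the cadherin CDH17 (2.34) and CEMIP (2.22) on the higher side. On the lower side they were ZNF804B (-2.99), TCTN1 (-1.98), the noradrenaline transporter SLC6A2 (-1.97) and NPTX1, a neuronal pentraxin (-1.86). Each of these was also apart in the same direction in joint clusters 1 and 2. KCTD16 had 3.21 in joint cluster 1 and 3.17 in joint cluster 2. NPTX1, the least apart of these in both, had -1.50 and -1.16. TAC1 stood at 7.84 UMIs per 10000 in joint cluster 5 of the library labelled shFoxP2 against 18.8 in shScr, a log2 ratio of -1.26, beside -1.29 in joint cluster 1.

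The ratio of joint cluster 5 over joint cluster 1 itself differed most between the libraries for EBF1, where it was larger by 1.33 on the log2 scale in the library labelled shFoxP2 than in shScr, followed by XYLT1 (1.31), OMG, a myelin glycoprotein gene (1.26), LDB2 (1.23) and TRPM3 (1.04). In the other direction it was smaller in the library labelled shFoxP2 for GORASP1 (-0.997), SYCP1 (-0.97), RBMS3 (-0.90), GMPS (-0.89) and DNMT3A, a DNA methyltransferase gene (-0.88). These differences were not tested.

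The shScr library had also been clustered by the authors on its own. Of the 675 members of joint cluster 5 in shScr, 658 (97.5%) fell in separate cluster 3, 8 in separate cluster 1, 8 in separate cluster 2 and 1 in separate cluster 4. Separate cluster 3 held 948 nuclei, of which those 658 were 69.4%, and its remainder came mostly from joint cluster 1 (212 nuclei), joint cluster 3 (46) and joint cluster 2 (27). The paper groups clusters 2, 3 and 4 of its separate clustering as a putative indirect-like pathway. It also reports many cells with FoxP2 in cluster 3. The grouped clusters are described there as holding cells with Drd1 and cells with Drd2, which need not be the same cells. Beside a direct-like and an indirect-like class, the paper proposes a further class of medium spiny neurons with both receptors. Across the libraries 47 barcodes were shared, of which 0 were in joint cluster 5 on both sides.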

How the data were processed

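Nuclei of Area X were measured by droplet single-nucleus RNA-seq in 1 shFoxP2-labelled and 1 shScr library, each from 2 birds (4 hemispheres). Per the methods, the authors used CellRanger 3.0.2 to count exonic and intronic UMIs on the zebra finch genome bTaeGut1_v1.p, kept nuclei with at most 10000 UMIs and 5% mitochondrial reads, and clustered with Seurat 3.0. The deposited values are raw counts of UMIs per gene and nucleus in 17430 gene rows, with the cluster of each nucleus. The UMI limit was the authors' step against doublets. Library totals were 42662731 UMIs in the shFoxP2-labelled library and 39179294 in shScr (median nucleus 2871 and 2300).

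Counts were summed per library and joint cluster. A level is UMIs per 10000 UMIs of the sum, with an exact Poisson interval. A ratio compares levels, with an exact binomial (Clopper-Pearson) interval. Both are at 95% and cover counting error only. Genes needed 200 UMIs over both sums, and 2-fold was the size rule. No test was made, with 1 library per condition and clusters built from the counts compared. Named genes were the 20 highest and 15 lowest ratios with a symbol, ranked by the library nearer to no difference, the 5 largest ratios between libraries and the 5 largest differences between libraries of the ratio of joint cluster 5 over joint cluster 1 in each direction, and any gene of the lists; 2 of the 15 are not reported here by name. Members and lists were chosen with earlier results of these data known. The weights of joint clusters 1 and 2 came from a non-negative least squares fit. Scrublet was run in scanpy 1.11.5, with Python 3.11.15, numpy 2.4.6, pandas 2.3.3 and scipy 1.17.1, and the calculations were checked on simulated counts. Alternatives changed the minimum, the fold, thinning (1000 or 500 UMIs), centring, possible doublets, the clusters compared and depth.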

Additional observations from a re-analysis of the deposited data

Results flagged for a closer look

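Among the named and listed genes, 8 had ratios of joint cluster 5 over joint cluster 1 in opposite directions in the libraries with both intervals off 0. RBMS3 had a log2 ratio of -0.47 in the library labelled shFoxP2 and 0.43 in shScr. NPY1R, a receptor for neuropeptide Y, had 0.25 in the library labelled shFoxP2 and -0.33 in shScr. The other 6 ratios were smaller. They were 0.178 and -0.097 for the axon guidance receptor gene ROBO1, 0.122 and -0.123 for the sodium channel gene SCN2A, and 0.0998 and -0.0989 for the potassium channel gene KCND3, with the library labelled shFoxP2 before shScr. They were -0.156 and 0.153 for the kainate receptor gene GRIK4, -0.102 and 0.101 for the transcription factor gene MEF2C, and -0.0896 and 0.0566 for the adhesion gene TENM2, in the same order. With 1 library per condition the difference was not tested for any of them, and none of these ratios reached 2-fold.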

How the results depend on the processing

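Counts of genes at least 2-fold higher and lower in joint cluster 5 than in joint cluster 1 were 29 and 26 in the library labelled shFoxP2 and 24 and 32 in shScr, and those between the libraries within joint cluster 5 were 56 and 58. At 1.5-fold these became 69 and 356 in the library labelled shFoxP2, 73 and 392 in shScr, and 232 and 264 between the libraries, and at 4-fold 8 and 0, 8 and 0, and 7 and 3. A minimum of 1000 UMIs gave 8 and 3, 10 and 1, and 10 and 8, and a minimum of 50 UMIs gave 56 and 166, 50 and 186, and 242 and 226, in the same order. Nuclei thinned to 1000 UMIs gave 10 and 14, 14 and 17, and 8 and 11, with fewer genes over the minimum. With ratios centred on the median gene, 7 genes were lower in the library labelled shFoxP2 and 18 in shScr, and with possible doublets left out 44 and 63 were. Only nuclei with 3000 to 6000 UMIs, an alternative chosen after seeing the data, gave 15 and 3 in the library labelled shFoxP2 and 13 and 1 in shScr, and moved 36 of 74 named values past their intervals.

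Against joint clusters 1 to 4 together, 0 genes were higher and 95 lower in the library labelled shFoxP2, and 0 higher and 104 lower in shScr. The direction turned there for 15 named genes in the library labelled shFoxP2: FOXP2 (-0.0863), ZNF521 (-0.11), EBF1 (-0.0555), PCDH17 (-0.65), NTSR1 (-0.29), LRP1B (-0.98), TRPS1 (-0.98), ADRA2C (-0.14), IAPP (-0.28), LDB2 (-0.35), OTOG (-0.0888), GRK3 (-0.38), EPHA5 (-0.0929), LAMA2 (0.20) and DRD2 (0.14). In shScr it turned for 17: FOXP2 (-0.0619), ZNF521 (-0.0299), EBF1 (-0.0649), PCDH17 (-0.37), NTSR1 (-0.0652), MYO3B (-0.0282), LRP1B (-1.20), TRPS1 (-0.82), ADRA2C (-0.18), IAPP (-0.0274), LDB2 (-0.0170), CHRM4 (-0.0208), OTOG (-0.30), GRK3 (-0.14), EPHA5 (-0.000931), LAMA2 (0.0673) and DRD2 (0.13). This setting adds joint clusters 2 to 4 to the group compared with. The listed genes that turned negative were all higher in joint cluster 2 than in joint cluster 1, in both libraries. LRP1B and PCDH17 were also higher in joint clusters 3 and 4 than in joint cluster 5. In the library labelled shFoxP2, LRP1B was at 0.941 in joint cluster 5, 0.734 in joint cluster 2, 2.27 in joint cluster 3 and 8.01 in joint cluster 4. DRD2 and LAMA2, which turned positive, were lower in joint cluster 2 than in joint cluster 1. In the library labelled shFoxP2, DRD2 was at 0.169 UMIs per 10000 in joint cluster 2 against 4.04 in joint cluster 1. LAMA2 was at 0.0356 against 0.790. In shScr these were 0.196 against 3.74 for DRD2 and 0.0528 against 1.04 for LAMA2.

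Joint cluster 5 was 4.27% of the library labelled shFoxP2 and 3.80% of shScr without possible doublets, and 7.72% and 6.99% of joint clusters 1 to 5. The shares of its nuclei with DRD2, NPY, both and neither were 67.1%, 81.8%, 56.3% and 7.41% in the library labelled shFoxP2 and 57.2%, 66.7%, 39.3% and 15.4% in shScr. With at least 2 UMIs asked for they were 37.5%, 55.9%, 23.8% and 30.4%, and 26.8%, 33.8%, 11.1% and 50.5%. Thinned to 1000 UMIs they were 20.8%, 30.6%, 6.94% and 55.6%, and 18.8%, 23.0%, 3.85% and 62.1%, and thinned to 500 UMIs 10.6%, 16.2%, 1.54% and 74.7%, and 9.78%, 13.6%, 0.741% and 77.3%. The weight of joint cluster 2 in shScr was 41.1% with the separate clusters of that library in place of the joint ones, against 49.1%. This and the alternatives for the position between joint clusters 1 and 2 were also chosen after seeing the data.

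No paired analysis was possible because the labels give no replicate numbers and each condition had 1 library; joint clusters were compared within each library, with no test, since they were built from the counts compared. Genes under the minimum could not be compared at this depth, and the lower named genes rest on few UMIs per nucleus.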
